A study of Mus musculus with 2 samples.

Results

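The cells described here were a group of epithelial cells from mouse colorectal tumours marked by S100g, Tgm4, Ttr and Sox17, and in some of them by Mptx2. They numbered 287 of the 4790 epithelial cells, of 7397 cells kept in all, in single-cell RNA sequencing libraries made with 10x Genomics chemistry. They were chosen from measured values: epithelial cells were taken by their summed level of Epcam, Krt8, Krt18 and Cldn7 (at least 8 UMIs, that is unique transcript molecules, per 10000 of the cell) with Ptprc below 1 on the same scale. Each was then scored by the mean of ln(1 + UMIs per 10000) over 8 genes (S100g, Tgm4, Fgf14, Ttr, Adamts9, Prss23, Sox17 and Ppic), and the top 6% over both libraries together were kept. Mptx2 was not in the score. These cells are called high-scoring cells below, and the remaining 4503 are called other epithelial cells.

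The cKO library came from mice of genotype Mtch2fl/fl VilCre, in which Cre recombinase is driven by the Villin promoter, active along the intestinal epithelium and not in immune or stromal cells. The WT library came from Mtch2fl/fl mice without Cre, so that both groups carried floxed Mtch2 alleles. The tumours of both groups were induced by AOM-DSS, the carcinogen azoxymethane with the colitis-causing agent dextran sulfate sodium, and were labelled intestine. Tumours of several mice were pooled within each genotype and dissociated with trypsin, and the labels give neither ages nor numbers of mice. With 1 pooled library per genotype there was no replicate, no test was possible, and all intervals below (exact, 95%) cover counting error only, since cells of 1 library are not replicates of a genotype. Mtch2 encodes a carrier-like protein of the outer mitochondrial membrane that inserts other proteins into it. The study set out to ask what its loss does in colorectal tumours.

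Mucosal pentraxins such as Mptx2 are secreted lectin-like proteins of the mouse gut that bind bacteria, and Mptx2 is known mainly from Paneth cells, the antimicrobial cells of the small intestinal crypt. S100g encodes calbindin-D9k, the vitamin D-induced calcium carrier of duodenal enterocytes. Ttr (transthyretin, a carrier of thyroxine and of retinol-binding protein), Sox17 (a transcription factor of definitive endoderm that also marks arterial endothelium) and Tgm4 (the transglutaminase of the mouse prostate) are not markers of normal colon epithelium.

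The library totals were 97364087 UMIs in 6723 barcodes for cKO and 116066712 UMIs in 9445 barcodes for WT. The high-scoring cells comprised 147 cKO and 140 WT cells, with medians of 52473 (cKO) and 36125.5 UMIs (WT), against 34377 (cKO) and 22870 UMIs (WT) in the other epithelial cells. Their median mitochondrial share was 5.87% (cKO) and 5.03% (WT), against 5.96% (cKO) and 5.23% (WT) in the other epithelial cells. The high-scoring cells were thus deeper in each library, at a like mitochondrial share. The part of depth in their selection was not tested. Doublet scores marked 2 cKO and 2 WT high-scoring cells, which were kept. Across the libraries 22 barcode sequences occurred in both, none of them in a high-scoring cell.

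The sequences just before the start sites of 3 of the genes that give these cells their name are shown because the level of each, on 3 chromosomes, was higher in the high-scoring than in the other epithelial cells, though often in different cells of the group. They are RefSeq sequences of 250 bases on build GRCm38.p6, at chr1:173277757-173278006 (minus strand) for Mptx2, chrX:162964600-162964849 (minus strand) for S100g and chr9:123034491-123034740 (plus strand) for Tgm4. Start sites are those of RefSeq, and the Mptx2 window reaches slightly into the gene by the coordinates given for it further on. Capitals mark 3 motifs searched on both strands: the SOX core ACAAT or ATTGT, the ONECUT core ATCGAT, which reads alike on both strands, and the nuclear receptor core AGGTCA or TGACCT.
Mptx2: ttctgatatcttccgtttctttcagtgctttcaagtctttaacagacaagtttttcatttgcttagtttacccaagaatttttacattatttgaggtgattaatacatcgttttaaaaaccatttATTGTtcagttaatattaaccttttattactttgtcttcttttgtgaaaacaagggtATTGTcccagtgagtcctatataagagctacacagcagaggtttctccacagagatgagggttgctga
S100g: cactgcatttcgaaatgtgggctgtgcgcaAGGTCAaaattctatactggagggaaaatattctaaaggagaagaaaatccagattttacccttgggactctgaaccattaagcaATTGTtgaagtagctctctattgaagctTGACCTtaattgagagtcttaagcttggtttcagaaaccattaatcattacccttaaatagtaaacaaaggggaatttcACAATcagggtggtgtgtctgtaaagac
Tgm4: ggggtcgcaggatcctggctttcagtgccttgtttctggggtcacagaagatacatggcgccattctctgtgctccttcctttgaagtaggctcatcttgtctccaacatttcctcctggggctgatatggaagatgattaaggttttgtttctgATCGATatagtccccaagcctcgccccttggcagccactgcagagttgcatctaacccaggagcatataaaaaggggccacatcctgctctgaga
The Mptx2 window held 2 SOX cores, the S100g window 2 SOX cores and 2 nuclear receptor cores, and the Tgm4 window 1 ONECUT core. Over Mptx2, the 8 score genes and the 25 genes that stood highest in these cells (named further on), 28 of 34 matched a promoter of this table by symbol. Of these, 8 held the SOX core (28.6%), against 28.3% of all 27025 promoters of the same length. The nuclear receptor core was in 5 (17.9%), against 13.8% of all promoters, and the ONECUT core in 1 (3.57%), against 0.729% of all. A match is a run of letters, not a bound site.

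The targeted gene was measured first. Mtch2 (chr2:90847155-90866810, plus strand, GRCm38) stood at 21.02 UMIs per 1000000 (CPM, computed on the summed UMIs of a group of cells) in the high-scoring cells of cKO and at 101 CPM in those of WT. In the other epithelial cells it stood at 24.3 CPM in cKO and 92.8 CPM in WT. The log2 ratio of cKO over WT was -2.26 in the high-scoring cells (interval -2.52 to -2.01) and -1.93 in the other epithelial cells. Mtch2 was thus lower in cKO in both groups of cells, as the genotypes are labelled, and was not absent. Which end of the transcript was read, and whether it lies in the deleted part of Mtch2, is not stated in the labels. Mtch1, the paralogue of Mtch2, was close between libraries, at 164 (cKO) and 154 CPM (WT). Of the other genes the study is titled for, Tfrc, the transferrin receptor, stood at 88.5 (cKO) and 104 CPM (WT) in the high-scoring cells, against 115 (cKO) and 107 CPM (WT) in the others, and E2f4 at 24.8 (cKO) and 27.7 CPM (WT).

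The high-scoring cells made up 8.40% of the epithelial cells of cKO (interval 7.15% to 9.80%) and 4.60% of those of WT (3.89% to 5.41%). The score ran without a gap through the threshold: the last cell inside scored 0.434 and the next outside 0.433, both from WT, while the median epithelial cell scored 0.0692 and the highest cell 1.32. Within 0.05 score units of the threshold lay 67 high-scoring cells and 75 other epithelial cells, so the high-scoring cells are a range of the score. Whether a separate cell type lies within it was not tested. They carried UMIs of a median of 6 (cKO) and 5 (WT) of the 8 score genes, against 1 in the other epithelial cells of both libraries.

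The share differed by the sex of the cells, which was read from Xist and Y-linked UMIs because both pools held cells of both sexes. Among cells assigned male, high-scoring cells were 12.5% of 1023 epithelial cells in cKO and 4.62% of 1105 in WT. Among cells assigned female, they were 1.37% of 365 in cKO and 5.42% of 1088 in WT. The high-scoring cells of cKO were 128 male, 5 female and 14 unassigned, whereas those of WT were 51 male, 59 female and 30 unassigned. A call needs at least 3 UMIs of the sex-linked genes, so it depends on depth. Among WT high-scoring cells the shallowest assigned male had 11701 UMIs and the shallowest assigned female 3626. The shares and levels by sex thus compare cells of unlike depth, and the part of depth in them was not tested. Because mice were pooled, a single animal with many such cells cannot be told apart from a genotype or a sex.

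The name these cells were given holds in part. Mptx2 (chr1:173274382-173277777, minus strand) stood at 1038 CPM in the high-scoring cells of cKO and 35.5 CPM in those of WT, against 39.3 (cKO) and 2.16 CPM (WT) in the other epithelial cells. It had a UMI in 79 of 147 high-scoring cells of cKO (53.7%) and 15 of 140 of WT (10.7%), against 11.7% (cKO) and 1.93% (WT) of the other epithelial cells. Cells with Ptprc, which should lack the gene, had a UMI in 6.16% (cKO, median 8292 UMIs) and 0.824% (WT, median 13338.5 UMIs). With each cell thinned to 3000 UMIs the high-scoring cells were positive in 28.6% (cKO) and 4.29% (WT), against 2.87% (cKO) and 0.586% (WT) of the other epithelial cells. Cells with Ptprc, thinned alike, were positive in 1.59% (cKO) and 0.275% (WT). Mptx2 was thus frequent among the high-scoring cells of cKO and rare among those of WT.

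Within cKO, Mptx2 rested on few cells. The highest cell held 284 UMIs per 10000, the median cell 0.165, and the 5 cells with the most UMIs held 76.7% of all Mptx2 UMIs. In WT the highest cell held 16.9 per 10000, the median cell 0, and 5 cells held 85.0%. Without those 5 cells in each library the level was 252 CPM in cKO and 5.58 CPM in WT. Of the 24 epithelial cells of cKO with at least 10 Mptx2 UMIs per 10000, 17 were high-scoring cells, and both such cells of WT were. Of those 17 high-scoring cells of cKO, 15 were assigned male and 0 female. Mptx2 and S100g occurred together in 55 cKO and 11 WT high-scoring cells, Mptx2 alone in 24 (cKO) and 4 (WT), S100g alone in 29 (cKO) and 77 (WT), and neither in 39 (cKO) and 48 (WT). Mptx1, the neighbouring mucosal pentraxin, stood at 9.38 (cKO) and 0.178 CPM (WT, 1 UMI) in the high-scoring cells, against 47.4 (cKO) and 12.5 CPM (WT) in the other epithelial cells, where 5 cells held 92.9% (cKO) and 77.5% (WT) of its UMIs. Without the 5 top cells of each group it stood at 0.932 (cKO) and 0 CPM (WT), against 3.37 (cKO) and 2.83 CPM (WT). It had a UMI in 10 of 147 (cKO) and 1 of 140 (WT) high-scoring cells (6.803% and 0.714%), against 5.99% (cKO) and 3.48% (WT) of the others.

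**Figure D1:**
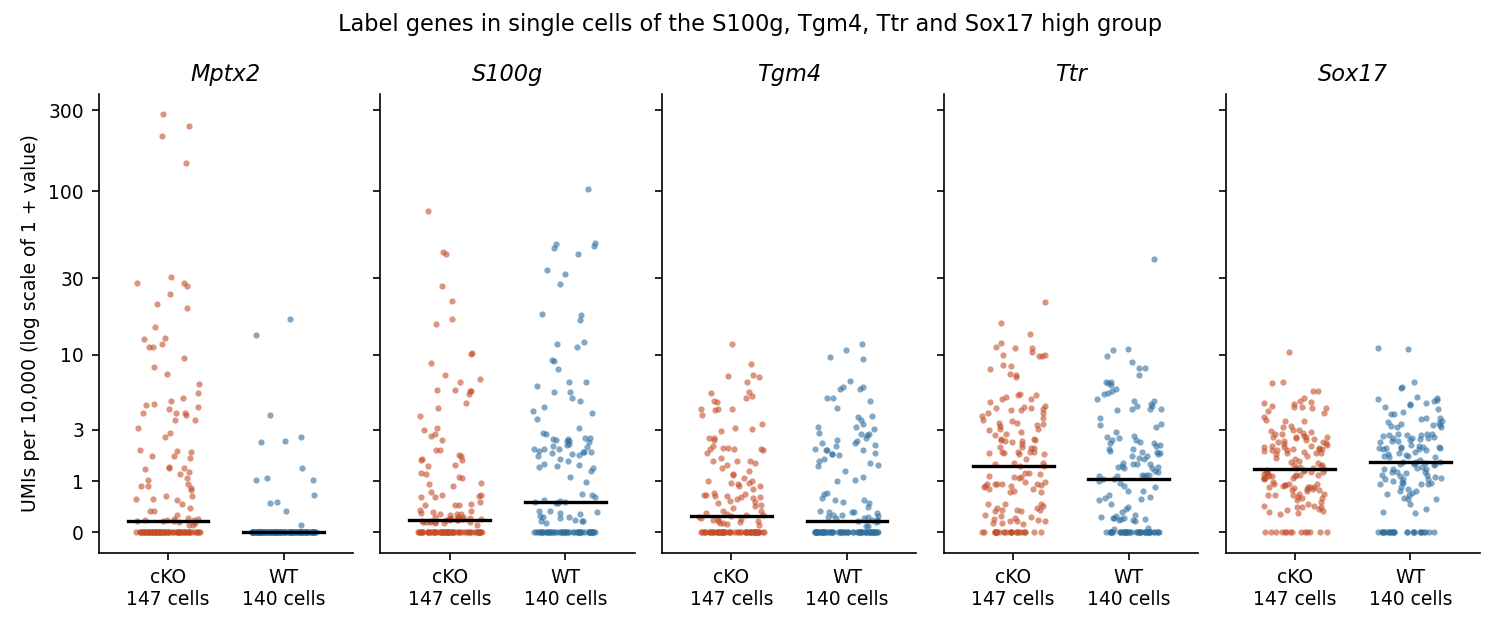
Each point is 1 high-scoring cell, by library (cKO left, WT right) for Mptx2, S100g, Tgm4, Ttr and Sox17, as UMIs per 10000 of the cell on an axis of log10(1 + value), with the median as a bar. Mptx2 reaches 284 per 10000 in cKO and 16.9 in WT, while Sox17 spreads alike over both libraries, with medians of 1.35 (cKO) and 1.57 (WT).

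The 8 score genes are described next, as values that chose the cells. S100g (chrX:162961992-162964599, minus strand) stood at 266 CPM in cKO and 698 CPM in WT, and had a UMI in 84 of 147 (cKO) and 88 of 140 cells (WT). The 5 cells with the most UMIs held 55.8% (cKO) and 51.8% (WT) of them, so S100g too was uneven. Among WT cells it was 1057 CPM in those assigned female and 461 CPM in those assigned male, with 247 CPM in cKO cells assigned male. The ratio of cKO over WT was -1.39 on the log2 scale over all high-scoring cells and -0.90 over male cells. Without the 5 top cells of each library the ratio was -1.57. The value of WT cells assigned female was led by few cells, among them the WT cell with the highest S100g level. Whether the gap between the sexes holds without such cells was not tested. S100g was lower in cKO over male cells too, and the part of sex in it was not tested beyond the value in male cells.

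Sox17 (chr1:4490931-4497354, minus strand) was the most widely detected of the 8. It had a UMI in 133 of 147 (cKO) and 114 of 140 (WT) high-scoring cells, at 185 CPM in cKO and 203 CPM in WT, against 44.4 (cKO) and 41.8 CPM (WT) in the other epithelial cells. Ttr was found in 121 (cKO) and 99 (WT) cells, at 277 (cKO) and 199 CPM (WT), against 34.2 (cKO) and 34.4 CPM (WT) in the others. Tgm4 was found in 86 (cKO) and 75 (WT) cells, at 128 (cKO) and 127 CPM (WT), against 5.46 (cKO) and 3.36 CPM (WT) in the others. These 3 genes were near equal between libraries or moderately higher in cKO. Adamts9, a secreted metalloprotease, stood at 173 (cKO) and 124 CPM (WT), and Prss23, a serine protease, at 64.4 (cKO) and 85.1 CPM (WT). Fgf14, which binds voltage-gated sodium channels inside the cell, stood at 131 (cKO) and 46.9 CPM (WT) and was found in 79 of 147 (cKO) and 22 of 140 (WT) cells. Ppic, a peptidyl-prolyl isomerase, stood at 83.3 (cKO) and 44.1 CPM (WT). Fgf14 was the score gene that differed most between libraries, at 1.48 (cKO over WT, log2) over all high-scoring cells and 1.81 over male cells.

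Cells with Ptprc had UMIs of Sox17 in 2.76% (cKO) and 4.95% (WT), of Ttr in 2.76% (cKO) and 4.12% (WT), of S100g in 2.34% (cKO) and 7.14% (WT) and of Tgm4 in 1.17% (cKO) and 1.37% (WT), at the median depths given for Mptx2. Thinned to 3000 UMIs, the high-scoring cells were positive for Sox17 in 42.2% (cKO) and 40.7% (WT), for Ttr in 44.2% (cKO) and 35% (WT), for S100g in 24.5% (cKO) and 35.7% (WT) and for Tgm4 in 19.0% (cKO) and 25% (WT). Cells with Ptprc, thinned alike, were positive for each of these genes in at most 1.37% in either library. These are score genes, so the choice of the cells sets that the high-scoring cells lie above.

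What else the high-scoring cells carried was described by ratios over the other epithelial cells within each library, with a pseudocount of 0.5 UMI. Only 38 of 4066 genes with at least 50 CPM were 2-fold or more higher in both libraries (0.935%), and 171 were 2-fold or more lower in both (4.21%). Of these 4066, which reached 50 CPM in at least 1 of both groups of cells in each library, 0 passed 2-fold in opposite directions. Tafa1, below that level in WT, did so, at 2.16 (cKO) and -1.14 (WT) on the log2 scale. The choice of the cells fixes that some genes stand out, so these counts are a description. Genes far below 2-fold went both ways, with 1769 higher and 1493 lower in both libraries at any size.

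The 25 highest genes are given by their known roles, an order chosen after their values were seen, and transcription factors and signalling genes come before the others. Rarb, the retinoic acid receptor beta, stood at 220 (cKO) and 145 CPM (WT), against 60.2 (cKO) and 45.7 CPM (WT) in the other epithelial cells. Onecut2, a homeodomain factor of foregut and liver development, stood at 280 (cKO) and 166 CPM (WT), against 101 (cKO) and 46.1 CPM (WT). Esr1, the oestrogen receptor alpha, stood at 171 (cKO) and 191 CPM (WT), against 72.0 (cKO) and 73.6 CPM (WT). These 3 DNA-binding regulators were higher in both libraries, and Onecut2 was also higher in cKO than in WT among the other epithelial cells. Mycl, of the MYC family, stood at 110 (cKO) and 54.0 CPM (WT), against 27.1 (cKO) and 21.7 CPM (WT). Rdh9, a retinol dehydrogenase, stood at 174 (cKO) and 130 CPM (WT), against 49.4 (cKO) and 57.0 CPM (WT). Ihh, the hedgehog ligand of gut epithelium, stood at 58.7 (cKO) and 87.4 CPM (WT), against 25.4 (cKO) and 30.9 CPM (WT). Gas6, the ligand of TAM receptor kinases, stood at 145 (cKO) and 164 CPM (WT), against 66.0 (cKO) and 56.4 CPM (WT).

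Some of the 25 are best known from nerve and muscle. Cadps, which primes dense-core vesicles for release, stood at 746 (cKO) and 680 CPM (WT), against 242 (cKO) and 243 CPM (WT) in the other epithelial cells. Smpx, a small protein of striated muscle, stood at 215 (cKO) and 220 CPM (WT), against 68.1 (cKO) and 70.4 CPM (WT). The synaptic scaffold Magi2 stood at 81.2 (cKO) and 97.7 CPM (WT), against 20.1 (cKO) and 24.8 CPM (WT). The 5 cells with the most UMIs held 35.6% (cKO) and 52.5% (WT) of those of Magi2. Magi2 had the highest ratio that both libraries reached among these genes, at 2.01 (cKO) and 1.98 (WT) on the log2 scale. The calcium channel gene Cacna1a (1.51 in cKO, 1.66 in WT), the neurexin Nrxn3 (1.35 in cKO, 1.21 in WT) and the RNA-binding factor Celf2 (1.40 in cKO, 2.04 in WT) were also among them.

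Others of the 25 encode enzymes and transporters. Aoc1, the diamine oxidase that breaks down histamine, stood at 138 (cKO) and 149 CPM (WT), against 47.3 (cKO) and 45.7 CPM (WT) in the others. Cpm, a membrane carboxypeptidase, stood at 340 (cKO) and 290 CPM (WT), against 91.9 (cKO) and 112 CPM (WT). Slc7a11, the cystine importer that feeds glutathione synthesis, stood at 92.6 (cKO) and 73.7 CPM (WT), against 41.9 (cKO) and 28.6 CPM (WT). Each of these was 2-fold or more higher in both libraries. The export pump Abcc2 (1.51 in cKO, 1.31 in WT), the endosomal sodium-proton exchanger Slc9a9 (2.0 in cKO, 1.36 in WT) and the aspartyl protease Bace2 (1.79 in cKO, 1.95 in WT) lay in the same range of log2 ratios. Ifitm2, a membrane protein that blocks virus entry, stood at 1168 (cKO) and 1243 CPM (WT), against 516 (cKO) and 529 CPM (WT). The remaining 5 of the 25 were Col4a1, Grb14, Eml1, Nhs and Tspan9, with log2 ratios between 1.25 and 2.27.

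**Figure D2:**
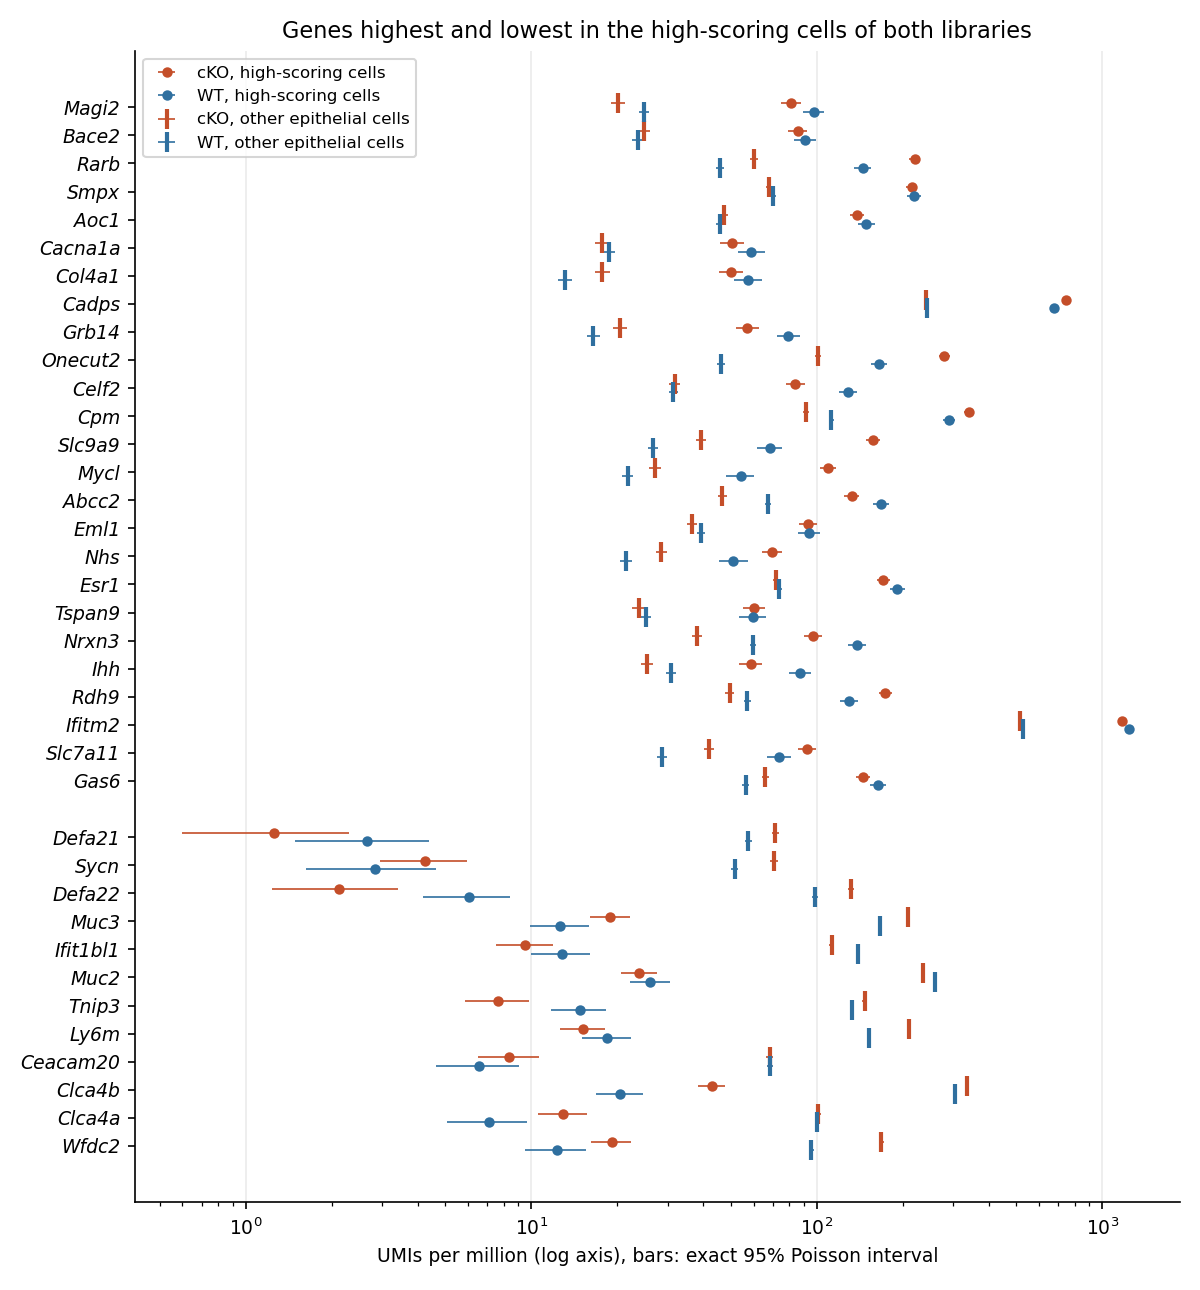
Each row is a gene named for its difference between high-scoring and other epithelial cells, drawn as CPM on a log axis for both groups of cells in both libraries. The higher genes, among them Magi2, Rarb and Cadps, lie to the right in the high-scoring cells of both libraries, and the lower ones, among them Muc2, Muc3 and Defa21, to the left.

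Among the 12 lowest genes were mucins and defensins. Muc2, the main secreted mucin of goblet cells, stood at 23.9 (cKO) and 26.1 CPM (WT) in the high-scoring cells, against 235 (cKO) and 258 CPM (WT) in the others. Muc3, a mucin of the brush border, stood at 18.9 (cKO) and 12.6 CPM (WT), against 209 (cKO) and 167 CPM (WT). The defensin gene Defa21 stood at 1.25 (cKO) and 2.67 CPM (WT), against 71.5 (cKO) and 57.6 CPM (WT). Defa21 and Defa22, both among the 12 lowest, belong to a family of near-identical copies, so counts of a single member are uncertain, and the Defa21 ratio of WT turned positive under 3 other choices of the cells (1.18, 1.59 and 2.18 on the log2 scale). The other 8 were Sycn, Ifit1bl1, Tnip3, Ly6m, Ceacam20, Clca4b, Clca4a and Wfdc2, at log2 ratios between -4.26 and -2.95.

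Gene lists of intestinal cell classes gave the same picture in sums and a weaker one per cell. Of the goblet genes measured, 10 of 13 (cKO) and 12 of 13 (WT) were 2-fold or more lower in the high-scoring cells, with median log2 ratios of -1.84 (cKO) and -2.28 (WT). For mature absorptive colonocyte genes these were 11 of 14 (cKO) and 8 of 12 (WT), with medians of -1.92 (cKO) and -2.03 (WT), whereas all genes measured had medians of 0.04 (cKO) and 0.01 (WT) and 6.85% (cKO) and 5.47% (WT) of them were 2-fold or more lower. Lypd8, a membrane protein that keeps flagellated bacteria from the epithelium, stood at 457 (cKO) and 449 CPM (WT), against 3466 (cKO) and 3362 CPM (WT). Krt20, the keratin of mature colonocytes, stood at 16.4 (cKO) and 21.7 CPM (WT), against 152 (cKO) and 165 CPM (WT). Summed levels are led by the goblet-rich and colonocyte-rich cells among the others. In the median cell, the goblet genes together held 2.47 (cKO) and 2.83 (WT) UMIs per 10000, against 2.43 (cKO) and 3.42 (WT) in the median other epithelial cell. The colonocyte genes held 8.16 (cKO) and 12.1 (WT), against 13.04 (cKO) and 16.5 (WT). The typical other epithelial cell was thus also low in goblet genes. Within the high-scoring cells of cKO, 5 cells held 64.4% of the Muc2 UMIs. Mucosal pentraxins and Paneth-type antimicrobials were lower as a list, with medians of -1.21 (cKO) and -2.81 (WT). Of 15 measured, 11 (cKO) and 14 (WT) were lower, against 45.6% (cKO) and 48.5% (WT) of all genes measured. In the median cell 14 genes of that list held 4.92 (cKO) and 5.11 (WT) UMIs per 10000, against 5.22 (cKO) and 7.34 (WT).

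Immune-response genes were lower as well. Of the interferon-response genes measured, 27 of 28 (cKO) and 29 of 31 (WT) were lower at any size, against 45.6% (cKO) and 48.5% (WT) of all genes measured, with medians of -0.58 (cKO) and -0.94 (WT). Ifngr1, which binds interferon gamma, stood at 54.0 (cKO) and 40.7 CPM (WT), against 125 (cKO) and 102 CPM (WT) in the others, whereas its partner Ifngr2 stood at 128 (cKO) and 134 CPM (WT), against 129 (cKO) and 139 CPM (WT). Of the MHC class I presentation genes, 16 of 18 (cKO) and 18 of 18 (WT) were lower, with medians of -0.55 (cKO) and -0.77 (WT). All 5 MHC class II genes measured were 2-fold or more lower in both libraries, and Cd74, the invariant chain, stood at 29.8 (cKO) and 57.0 CPM (WT), against 151 (cKO) and 255 CPM (WT). These differences held in the median cell. The interferon list held 8.45 (cKO) and 9.90 (WT) UMIs per 10000 there, against 11.3 (cKO) and 13.1 (WT), and the MHC class II list 0.421 (cKO) and 0.695 (WT), against 1.21 (cKO) and 2.10 (WT).

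Wnt targets split. The list as a whole had medians of 0.16 (cKO) and 0.03 (WT), with 16 of 28 (cKO) and 15 of 28 (WT) genes higher, against 54.4% (cKO) and 51.5% (WT) of all genes measured. Lgr5, the stem cell receptor of the crypt, stood at 116 (cKO) and 94.4 CPM (WT), against 176 (cKO) and 217 CPM (WT) in the others. Znrf3, the ubiquitin ligase that removes Wnt receptors, stood at 469 (cKO) and 484 CPM (WT), against 259 (cKO) and 295 CPM (WT). Axin2, a feedback inhibitor of the pathway, stood at 196 (cKO) and 211 CPM (WT), against 134 (cKO) and 165 CPM (WT), and Ascl2, the stem cell factor, at 38.0 (cKO) and 31.5 CPM (WT), against 20.4 (cKO) and 20.9 CPM (WT). In sums, Lgr5 was thus lower while these 3 targets were higher. The sums of Lgr5 in the other epithelial cells include 62 (cKO) and 131 (WT) cells with at least 10 UMIs per 10000, against 2 (cKO) and 2 (WT) high-scoring cells. The median high-scoring cell held 0.310 (cKO) and 0.152 (WT) per 10000, against 0.249 (cKO) and 0.363 (WT) in the median other cell, so that in cKO the median went the other way. Lgr5 had a UMI in 65.3% (cKO) and 52.1% (WT) of the high-scoring cells, against 55.2% (cKO) and 56.2% (WT) of the others, and with each cell thinned to 3000 UMIs in 23.8% (cKO) and 17.1% (WT), against 25.4% (cKO) and 29.6% (WT). In the BMP and Notch list 13 of 16 (cKO) and 10 of 15 (WT) genes were higher. Its member Id2, an inhibitor of basic helix-loop-helix factors, stood at 354 (cKO) and 367 CPM (WT), against 161 (cKO) and 212 CPM (WT), and the list held 28.7 (cKO) and 29.6 (WT) UMIs per 10000 in the median cell, against 16.9 (cKO) and 20.6 (WT). Hes6, an inhibitor of the Notch target Hes1, stood at 331 (cKO) and 301 CPM (WT), against 167 (cKO) and 200 CPM (WT).

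Genes of the regenerative or fetal-like state, which colonic epithelium takes on after injury, were lower. Of 27 measured, 10 (cKO) and 9 (WT) were 2-fold or more lower, against 6.85% (cKO) and 5.47% (WT) of all genes measured, and 0 were 2-fold higher. The list medians were -0.62 (cKO) and -0.29 (WT). Ly6a (Sca-1) stood at 91.3 (cKO) and 101 CPM (WT), against 638 (cKO) and 536 CPM (WT), and Anxa1 at 263 (cKO) and 285 CPM (WT), against 883 (cKO) and 747 CPM (WT). The list held 33.7 (cKO) and 35.9 (WT) UMIs per 10000 in the median cell, against 46.6 (cKO) and 47.9 (WT). Genes of endoderm and gut transcription factors were near the rest, with medians of 0.10 (cKO) and -0.14 (WT). Of 22 measured in each library, 13 (cKO) and 8 (WT) were higher at any size and 9 (cKO) and 14 (WT) lower. Of all genes measured, 54.4% (cKO) and 51.5% (WT) were higher at any size. Foxa2, a factor of foregut endoderm, was among the higher ones, at 31.4 (cKO) and 27.0 CPM (WT), against 20.1 (cKO) and 17.2 CPM (WT). Of the list of calcium transport and vitamin D response, 7 genes were measured, with medians of -0.52 (cKO) and -0.22 (WT). Of these, 3 (cKO) and 2 (WT) were higher and 4 (cKO) and 5 (WT) lower. Among them Vdr, the vitamin D receptor, stood at 5.13 (cKO) and 7.82 CPM (WT), against 23.5 (cKO) and 23.5 CPM (WT), and Trpv6, the calcium entry channel, at 9.01 (cKO) and 3.91 CPM (WT), against 13.4 (cKO) and 11.4 CPM (WT).

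Genes of ferroptosis control, the iron-dependent death by lipid peroxidation that the study is titled for, had medians of 0.03 (cKO) and 0.01 (WT) over the other epithelial cells. Single genes departed from it. Besides Slc7a11, Acsl4, which loads membranes with polyunsaturated fatty acids, stood at 105 (cKO) and 112 CPM (WT), against 56.4 (cKO) and 59.95 CPM (WT), and the lipid remodelling enzyme Mboat1 was lower, at 19.8 (cKO) and 26.5 CPM (WT), against 84.7 (cKO) and 81.9 CPM (WT). Between cKO and WT high-scoring cells the list had a median of -0.07, with 13 of 32 genes higher, against 47.4% of all genes measured. Gpx4, the enzyme that reduces lipid peroxides, stood at 195 (cKO) and 227 CPM (WT). The list of Mtch2 and the outer mitochondrial membrane had medians of 0.00 over the other epithelial cells in both libraries.

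**Figure D3:**
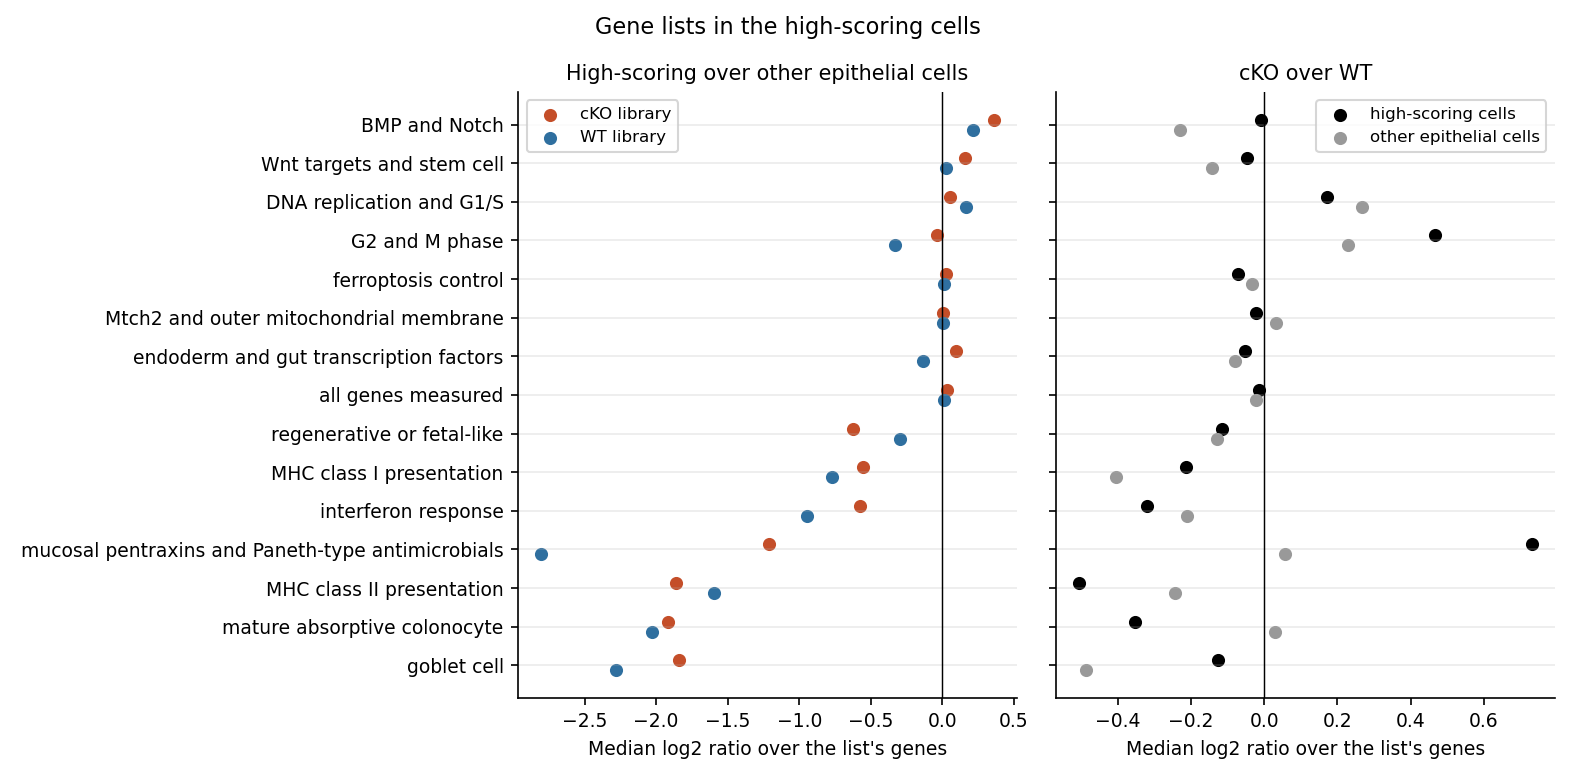
Points are median log2 ratios over the genes of each list, at left for high-scoring over other epithelial cells in each library and at right for cKO over WT in each group of cells. Goblet, colonocyte and MHC class II lists lie below -1.5 at left in both libraries, where the point of all genes measured lies at 0.04 (cKO) and 0.01 (WT).

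Along the whole score, several genes that were not in it followed it in steps. Onecut2, Rarb, Esr1 and Cadps were named above for standing high in these same cells. Their higher levels in the bands of high-scoring cells are therefore partly set by that choice. In cKO, Onecut2 was 66.8 CPM in the cells below the middle of the score, 111 and 163 CPM in the next bands, and 279, 254 and 314 CPM in the 3 bands of high-scoring cells. In WT the 6 bands had 28.4, 49.6, 91.8, 159, 170 and 187 CPM, of which the last holds 14 cells. Rarb went the same way, between 30.6 and 275 CPM in cKO and between 38.5 and 167 CPM in WT (154 CPM in the band before the 14 cells). Esr1, Cadps and Robo1 were also higher in the high-scoring bands than below the middle of the score. Lypd8 was 5962 CPM in the lowest band of cKO and 227 CPM just above the threshold, and in WT 5180 and 304 CPM. The order broke above the threshold: Lypd8 was 1082 (cKO) and 689 CPM (WT) in the middle band of high-scoring cells. Mtch2 stayed between 20.5 and 26.5 CPM over all bands of cKO and between 77.2 and 119 CPM over those of WT.

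**Figure D4:**
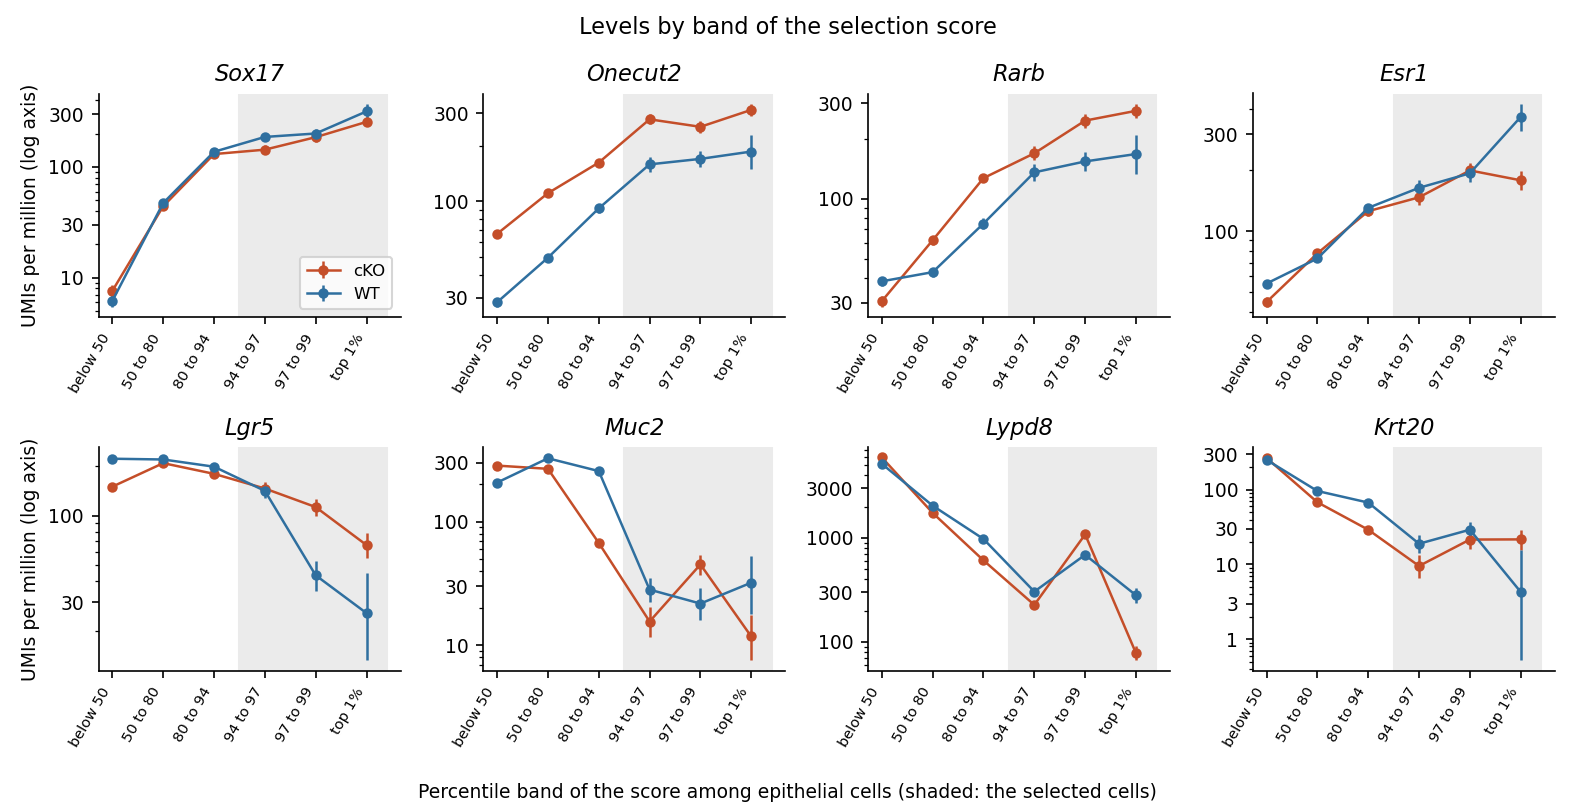
Panels give the level of 8 genes, as CPM on a log axis with counting intervals, over bands of the selection score, with the high-scoring cells shaded, for cKO and WT. Sox17 belongs to the score. Onecut2, Rarb and Esr1 are higher, and Muc2, Lypd8 and Krt20 lower, in the shaded bands than in the lowest band of both libraries.

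Cells chosen in the same number (287) by other gene sets were set beside these cells. Lgr5-high cells were scored by Lgr5, Ascl2, Axin2, Smoc2, Sp5, Znrf3, Rnf43 and Tnfrsf19, secretory cells by Muc2, Fcgbp, Clca1, Zg16, Spink4, Tff3, Ang4 and Reg4, and crypt-base cells by Cftr, Slc12a2, Kcne3, Kcnq1, Sox9, Cd44, Ephb3 and Best2, so that their levels of these genes are set by the choice. The overlap was 8 cells with Lgr5-high cells, 7 with secretory cells and 12 with crypt-base cells. Sox17 is in the score of the high-scoring cells, so its higher level there is likewise set by the choice. Sox17 stood at 185 (cKO) and 203 CPM (WT) in the high-scoring cells, against 28.7 (cKO) and 36.7 CPM (WT) in Lgr5-high, 8.38 (cKO) and 20.7 CPM (WT) in secretory and 20.7 (cKO) and 20.3 CPM (WT) in crypt-base cells. Mptx2, in no score, was 1038 (cKO) and 35.5 CPM (WT), against 33.1 (cKO) and 0.152 CPM (WT) in Lgr5-high cells. It was 129 (cKO) and 10.1 CPM (WT) in secretory and 1.64 (cKO) and 0 CPM (WT) in crypt-base cells. Rarb, which was in no score, stood at 220 (cKO) and 145 CPM (WT), against 93.9 (cKO) and 108 CPM (WT) in Lgr5-high, 6.70 (cKO) and 14.9 CPM (WT) in secretory and 18.9 (cKO) and 14.7 CPM (WT) in crypt-base cells. Rarb was thus nearest in the Lgr5-high cells. Robo1, a guidance receptor, was as high there, at 768 (cKO) and 863 CPM (WT) in the high-scoring cells and 852 (cKO) and 738 CPM (WT) in Lgr5-high cells.

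Markers of other cell types were read for the whole lists. Of 7 T cell markers all were detected in both libraries, at a summed 5.76 (cKO) and 6.40 CPM (WT), against 5.78 (cKO) and 6.14 CPM (WT) in the other epithelial cells. Macrophage markers (8 of 8 detected) summed to 33.9 (cKO) and 68.1 CPM (WT), against 47.1 (cKO) and 48.0 CPM (WT), and neutrophil markers (7 of 7) to 44.2 (cKO) and 97.9 CPM (WT), against 169 (cKO) and 75.6 CPM (WT). B and plasma cell markers (7 of 7 in cKO, 6 of 7 in WT) summed to 7.13 (cKO) and 6.22 CPM (WT), against 62.4 (cKO) and 30.5 CPM (WT). Macrophage and neutrophil sums were thus higher than in the other epithelial cells in WT and lower in cKO. In cells with Ptprc, macrophage markers summed to 6122 (cKO) and 10805 CPM (WT), and neutrophil markers to 13348 (cKO) and 2883 CPM (WT). Immune markers were thus low beside cells with Ptprc, as the Ptprc limit of the gate sets. Fibroblast markers (6 of 7 in both) summed to 7.13 (cKO) and 43.7 CPM (WT), against 27.2 (cKO) and 41.0 CPM (WT). Squamous markers (6 of 7 in cKO, 4 of 7 in WT) summed to 58.9 (cKO) and 69.7 CPM (WT), against 139 (cKO) and 50.3 CPM (WT).

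Summed over their lists, endothelial and tuft cell markers were higher than in the other epithelial cells. The 7 endothelial markers, all detected, summed to 70.7 (cKO) and 130 CPM (WT), against 29.2 (cKO) and 45.1 CPM (WT), and of this Flt1, a receptor of vascular endothelial growth factor, made 43.9 (cKO) and 81.6 CPM (WT). The 12 tuft cell markers summed to 105 (cKO) and 164 CPM (WT), against 66.0 (cKO) and 69.4 CPM (WT), mostly by Avil, an actin-binding protein, at 86.2 (cKO) and 83.5 CPM (WT). Of the 12 tuft genes, 1 (Avil) had at least 10 CPM in cKO, and 5 had in WT. All of these were higher, against 54.4% (cKO) and 51.5% (WT) of all genes measured. Their medians were 1.00 (cKO) and 1.52 (WT) on the log2 scale, and the value of cKO is that of Avil alone. The median high-scoring cell held 1.02 (cKO) and 1.05 (WT) tuft marker UMIs per 10000, against 0.315 (cKO) and 0.228 (WT) in the median other cell. The part of endothelial or tuft cells in the results was not tested. Of the tuft markers Gfi1b was at 0 in both libraries, and Dclk1 stood at 0.876 (cKO) and 33.8 CPM (WT). Enteroendocrine markers (18 of 22 detected in cKO, 12 of 22 in WT) summed to 117 (cKO) and 68.2 CPM (WT), against 97.9 (cKO) and 96.3 CPM (WT), with Neurog3 and Pax4 at 0 in both. Of the 9 markers of prostate and seminal vesicle besides Tgm4, 3 were detected in each library, and Pbsn, Svs2, Svs4, Svs5 and Msmb were at 0 in both. Hoxb13, a posterior Hox factor, stood at 202 (cKO) and 123 CPM (WT), against 133 (cKO) and 121 CPM (WT).

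Between the libraries, 22 of 4105 genes with at least 50 CPM were 2-fold or more higher in the high-scoring cells of cKO than of WT (0.536%), and 23 were 2-fold or more lower (0.56%). In the other epithelial cells 10 of 4083 were higher (0.245%) and 9 lower (0.22%), values that rest on many more cells. Mptx2 had the largest ratio of the named genes, at 4.86 on the log2 scale (4.67 to 5.08), with 4.67 over male cells. In the other epithelial cells its ratio was 4.18, and there 5 cells held 66.1% (cKO) and 61.5% (WT) of its UMIs. Cells with Ptprc, which should lack Mptx2, also had more of it in cKO, at 5.74 (cKO) and 0.691 CPM (WT). How far such stray counts enter the value of the other epithelial cells was not tested.

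Antimicrobial genes followed among the higher genes, and most of them rested on few cells. Defa24 stood at 799.6 CPM in cKO and 60.6 CPM in WT, but 5 cells held 98.4% of its UMIs in cKO, and without them it stood at 13.7 CPM in cKO and 39.7 CPM in WT. Defa17 stood at 145 (cKO) and 9.42 CPM (WT), and without the 5 top cells at 2.81 (cKO) and 7.40 CPM (WT). Both defensins thus turned round, and counts of single defensin genes are uncertain. Saa1, an acute-phase protein, stood at 150.3 (cKO) and 20.3 CPM (WT), with 15.8 (cKO) and 12.6 CPM (WT) without the 5 top cells and a log2 ratio of 0.50 over male cells. Reg3g, an antibacterial lectin, stood at 54.6 (cKO) and 14.4 CPM (WT), with 11.2 (cKO) and 6.25 CPM (WT) without them, and its log2 ratio turned to -0.41 (interval -0.70 to -0.12) with the top 6% taken within each library. Lcn2, which binds bacterial siderophores, held up: it stood at 308 (cKO) and 72.0 CPM (WT), and at 155 (cKO) and 35.6 CPM (WT) without the 5 top cells. The list of mucosal pentraxins and Paneth-type antimicrobials had a median of 0.73 for cKO over WT, with 9 of 11 genes higher, against 47.4% of all genes measured, and of 0.06 in the other epithelial cells. The median lay between 0.11 and 2.13 under the other settings tried. It was 0.11 at the top 10% of the score, 0.18 without S100g in the score, 0.21 with per-cell means and 0.28 with the top 6% taken within each library, each with an interval that spans 0.

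Other genes higher in cKO were spread over more cells. For Clu, Trf, Cdk14 and Kcnq1ot1, 5 cells held between 21.4% and 29.4% of the UMIs in cKO. Clu, a secreted chaperone that marks injury-induced stem cells, stood at 234 (cKO) and 74.5 CPM (WT), or 174 (cKO) and 49.2 CPM (WT) without the 5 top cells. Trf, transferrin, the iron carrier that Tfrc takes up, stood at 76.8 (cKO) and 25.8 CPM (WT), with a log2 ratio of 1.57 over all cells, 3.0 over male cells and 2.30 without the 5 top cells. Cdk14, a cyclin-dependent kinase, stood at 64.4 (cKO) and 12.4 CPM (WT). Kcnq1ot1, a long RNA antisense to Kcnq1, stood at 107 (cKO) and 29.1 CPM (WT), and whether counting used the strand is not stated in the labels. Tafa1 (50.7 CPM in cKO, 7.82 in WT) and Pnliprp2 (91.6 CPM in cKO, 27.2 in WT), a pancreatic-type lipase, were instead concentrated in 5 cells, which held 97.8% (Tafa1) and 76.9% (Pnliprp2) of the UMIs in cKO. Without the 5 top cells Tafa1 stood at 1.17 (cKO) and 0.949 CPM (WT) and Pnliprp2 at 22.1 (cKO) and 13.3 CPM (WT), with log2 ratios of 0.25 and 0.73. The ratio of Tafa1 turned to -1.34 at the top 3% of the score and to -1.11 with the top 6% taken within each library.

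The lower genes in cKO, after Mtch2, had log2 ratios between -2.42 and -1.36 without the 5 top cells. Dkk2, a secreted modulator of Wnt signalling, stood at 43.3 (cKO) and 191 CPM (WT), with a log2 ratio of -2.14 over all and -2.11 over male cells. Thbs2, a matricellular thrombospondin, stood at 22.7 (cKO) and 102 CPM (WT), and Crim1, a membrane protein that binds BMPs, at 14.3 (cKO) and 66.5 CPM (WT). Their ratios over male cells were -1.15 and -1.05, about 1 unit nearer to 0 than over all cells. Abcb1a, the P-glycoprotein pump, stood at 15.4 (cKO) and 56.9 CPM (WT) and had a ratio of -0.05 over male cells, against -1.88 over all. Car1, a carbonic anhydrase of colonocytes, stood at 28.03 (cKO) and 98.6 CPM (WT), with 88.4% (cKO) and 83.1% (WT) of its UMIs in 5 cells. Pls1, a fimbrin of microvilli, stood at 36.7 (cKO) and 98.98 CPM (WT), and Gipc2, a PDZ-domain adaptor, at 25.9 (cKO) and 69.7 CPM (WT). The remaining ones were Tafa2 (44.9 CPM in cKO, 141 in WT), Cdc42bpa (20.5 CPM in cKO, 69.5 in WT) and Slc7a8, an amino acid exchanger (18.6 CPM in cKO, 50.3 in WT), besides S100g.

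**Figure D5:**
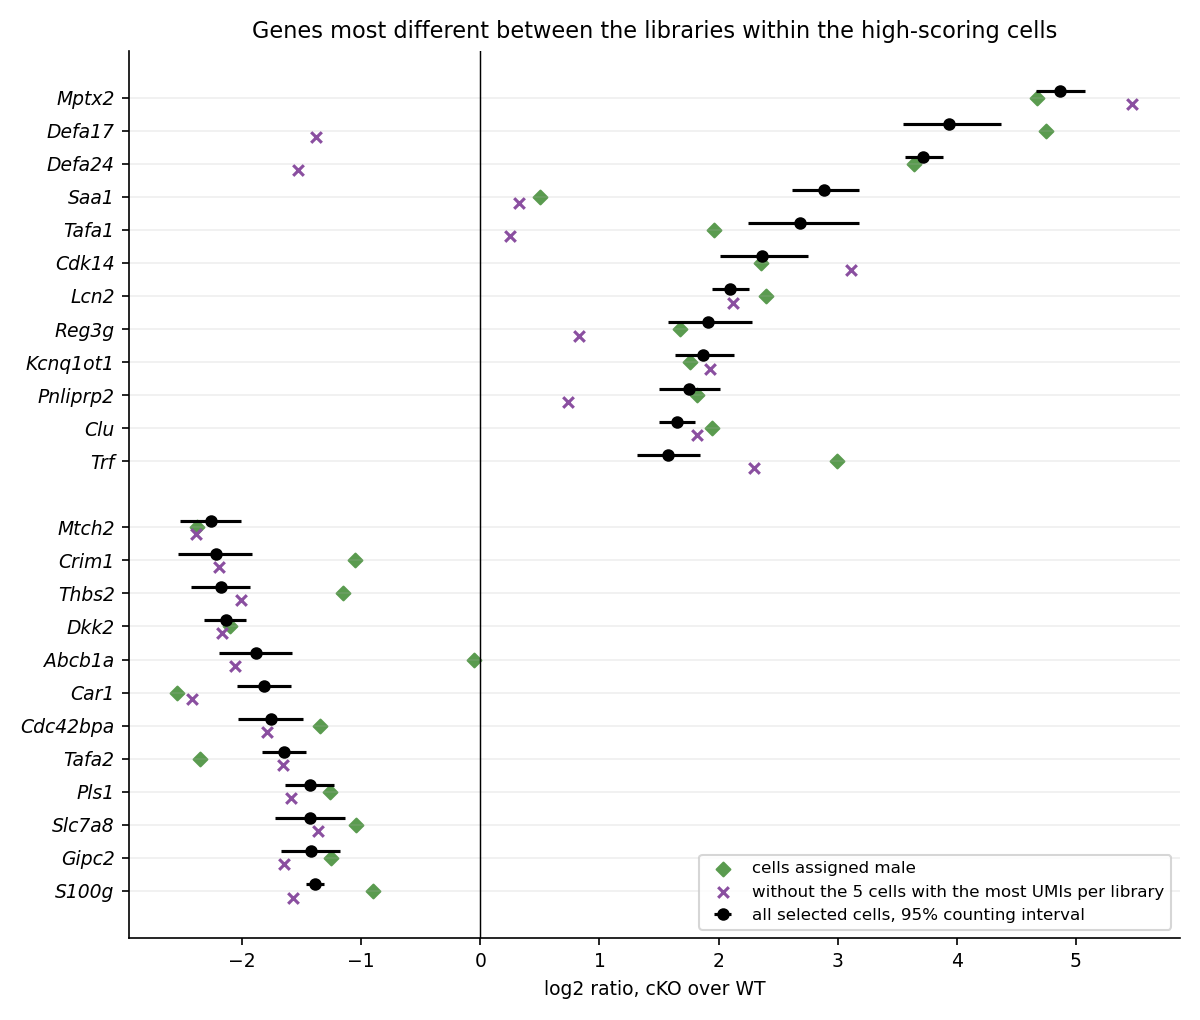
Log2 ratios of cKO over WT for the genes named by this comparison. They are given over all high-scoring cells (with counting intervals), over those assigned male, and without the 5 top cells of each library. Mptx2 lies at 4.86, 4.67 and 5.47, while Abcb1a lies at -1.88 over all and -0.05 over male cells.

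Cell cycle genes were higher in cKO in sums, and the median cell went the other way. Of the G2 and M phase genes measured, 32 of 32 were higher in the high-scoring cells of cKO than of WT, with a median of 0.47, and 33 of 33 were higher in the other epithelial cells, with a median of 0.23. Of all genes measured, 47.4% were higher in the high-scoring cells and 43.6% in the others, each with a median of -0.02. In the median high-scoring cell the list held 2.27 UMIs per 10000 in cKO and 3.13 in WT. Top2a, a topoisomerase of dividing cells, stood at 137 (cKO) and 69.5 CPM (WT), and Mki67 at 74.9 (cKO) and 64.9 CPM (WT), against 96.6 (cKO) and 81.5 CPM (WT) in the other epithelial cells. Dissociation stress genes differed by a median of 0.12 for cKO over WT, and among them Hspb1, a small heat shock protein, stood at 1134 (cKO) and 554 CPM (WT), against 491 (cKO) and 452 CPM (WT).

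Across epithelial cells thinned to 3000 UMIs, the genes whose levels were most like Mptx2 had weak correlations. Of 7482 genes compared over 1749 cKO and 3041 WT cells, the highest mean Spearman correlations were those of Pabpc1 and Lrmda (0.12 each) and of Onecut2 (0.11), with Cadps and Ifitm2 also among the first 10. Only 88 (cKO) and 23 (WT) of those cells held a Mptx2 UMI, and the cells share library and depth, so these values are a description of sparse counts.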

How the data were processed

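The authors deposited raw UMI counts per gene and barcode. Per the file headers, Cell Ranger 7.2.0 made them. Seurat 3.0 and mm10 are named, without a role, in the submitters' processing notes, and filters on cells after counting are not stated. Of the 32285 genes, 32158 were matched by identifier to GENCODE M21 (GRCm38), which gave the coordinates. Groups came from the labels: 1 library of each genotype.

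Barcodes with at least 500 genes, at least 3000 UMIs and at most 25% mitochondrial UMIs were kept, gated and scored as described above. Doublets were not removed in the main values; Scrublet scores (scanpy 1.11.5, at 0.8% per 1000 barcodes) served as an alternative. UMIs were summed per library and group of cells and scaled to 1000000. Ratios had a pseudocount of 0.5 UMI and a 95% interval by the exact conditional binomial, levels an exact Poisson and shares a Clopper-Pearson interval, tested on simulated data. Lists used genes with at least 10 CPM in either group compared. Cells were called male or female with at least 3 UMIs of Y-linked genes or of Xist and over 3-fold more than of the other.

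Named genes were the 25 highest and 12 lowest in the high-scoring cells of both libraries at 50 CPM, by the smaller of both ratios, and the 12 largest ratios each way for cKO over WT whose interval lacked 0, whose per-cell mean had the same sign and whose level was at least 20% of that in Ptprc-positive cells. Gene models, Xist, Tsix and genes of the Y chromosome, of mitochondrial DNA, ribosomal proteins, globins and antigen receptors were left out, and from the first comparison also gate and score genes. The cells, gene lists and tests were chosen with earlier results of these data known. Python 3.11.15 and scipy 1.17.1 were used.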

Additional observations from a re-analysis of the deposited data

Results flagged for a closer look

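Some results went opposite ways in parts of the data, and none of these differences was tested. The share of high-scoring cells, as cKO minus WT, was -4.05 percentage points among epithelial cells assigned female and 7.90 percentage points among those assigned male. The mice were pooled within each genotype, so sex and single animals cannot be told apart. The call of sex also depends on the depth of a cell.

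Of the genes named for cKO over WT (12 each way), 10 had ratios of high-scoring over other epithelial cells of opposite sign in cKO and WT. Their counting intervals lacked 0 in both libraries. The named genes were chosen for large ratios between the libraries in these same high-scoring cells. Opposite signs over the other epithelial cells are therefore partly set by that choice. How many of all genes had opposite signs with such intervals was not counted. On the log2 scale Defa17 stood at 0.80 in cKO and -3.55 in WT, Defa24 at 0.83 in cKO and -3.31 in WT, and Tafa1 at 2.16 in cKO and -1.14 in WT. For these 3, 5 cells of cKO held nearly all UMIs. Lcn2 stood at 0.39 in cKO and -1.61 in WT, Kcnq1ot1 at 0.68 in cKO and -0.29 in WT, and Trf at 0.60 in cKO and -0.48 in WT. The other 4 were higher in WT: Thbs2 stood at -0.28 in cKO and 1.68 in WT, Abcb1a at -1.44 in cKO and 0.21 in WT, Cdc42bpa at -1.13 in cKO and 0.18 in WT, and Slc7a8 at -0.91 in cKO and 0.85 in WT.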

How the results depend on the processing

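Depth limits the values: genes with few UMIs have wide intervals, and with 1 pooled library per genotype no difference between genotypes can be told apart from one between mice or libraries. No paired analysis was possible because there is 1 library per genotype and the groups share fewer than 2 replicate numbers. Settings on cells assigned female gave no ratio of cKO over WT, since cKO had 5 such high-scoring cells. The cause of the shifts below was not tested. Leaving out the 5 cells with the most UMIs of a gene was chosen after seeing the data.

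The share of high-scoring cells (8.40% in cKO, 4.60% in WT) was 4.46% (cKO) and 2.17% (WT) at the top 3%, 12.6% (cKO) and 8.52% (WT) at the top 10%, and 6.003% (cKO) and 5.98% (WT) with the top 6% taken within each library, which fixes it by construction. In cells assigned female it was 1.37% (cKO) and 5.42% (WT), and in cKO cells assigned male 12.5%. Of the 287 high-scoring cells, 245 were kept with the threshold within each library and 251 with S100g out of the score.

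For cKO over WT in the high-scoring cells, the log2 ratio of Mtch2 with per-cell means was -1.96. That of Mptx2 (4.86) was 4.64 with per-cell means, 5.13 at the top 10%, 5.29 without S100g in the score, 5.41 at the higher UMI minimum, 5.42 at the lower limit on mitochondrial UMIs, 5.47 without the 5 top cells, 5.58 within each library and 7.58 at the top 3%.

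Genes 2-fold higher and lower over the other epithelial cells (38 and 171) were 72 and 310 at 20 CPM and 16 and 89 at 100 CPM. For cKO over WT (22 higher, 23 lower) they were 58 and 74 at 20 CPM, 13 and 11 at 100 CPM, and 49 and 60 at the top 3%. The lower count was 36 in cells assigned male, 44 with per-cell means and 37 within each library.

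Ratios that turned round were Defa21 over the other epithelial cells in WT (1.18 at the top 10%, 1.59 within each library, 2.18 without S100g in the score), and for cKO over WT Tafa1 (-1.34 at the top 3%, -1.11 within each library), Reg3g (-0.41 within each library), Defa17 (-1.38) and Defa24 (-1.53) without the 5 top cells.

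List medians of the high-scoring over the other epithelial cells moved as follows. In WT, goblet genes were -1.20 without S100g in the score, -1.09 at the top 10% and -1.17 within each library. Paneth-type antimicrobials in WT were -1.23 without S100g, -1.90 at the top 10%, -3.68 at the top 3% and -1.75 within each library. Colonocyte genes in cKO were -2.94 without S100g. MHC class I genes in WT were -0.62 with per-cell means. MHC class II genes were -0.98 in WT cells assigned female, and in cKO -1.12 at the top 10%, -2.37 at the top 3% and -1.70 within each library.

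G2 and M phase genes in cKO were -0.28 in cells assigned male, -0.13 without doublets, 0.30 with per-cell means, -0.15 without S100g, 0.17 at the top 10% and -0.27 at the top 3%. In WT they were -0.75 in cells assigned male, -0.016 with per-cell means, 0.060 at the top 10% (turned round), -0.20 at the top 3%, -0.19 within each library and -0.26 with the reduced total. DNA replication and G1/S genes in cKO were 0.22 with per-cell means, 0.21 at the top 10%, 0.0029 at the top 3% and 0.11 within each library. In WT they were 0.32 (female), 0.015 (male), 0.090 without doublets, 0.49 with per-cell means, 0.33 at the top 10%, 0.24 at the top 3%, 0.31 within each library and 0.23 with the reduced total, which leaves out mitochondrial, ribosomal, haemoglobin and immunoglobulin genes.

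List medians of cKO over WT moved too. G2 and M phase genes were 0.72 in cells assigned male, 0.20 with per-cell means, 0.28 at the top 10% and 0.14 at the top 3%. G1/S genes were -0.18 with per-cell means (turned round) and 0.054 at the top 3%. Goblet genes were 0.14 (male), -0.84 with per-cell means, -0.75 without S100g, -1.40 at the top 10%, 1.00 at the top 3% and -0.77 within each library. Paneth-type antimicrobials were 0.21 with per-cell means, 0.18 without S100g and 0.11 at the top 10%. MHC class II genes were -1.03 with per-cell means and 0.36 at the top 10% (turned round). The other 390 of these summary values stayed within their counting or list interval, or within 1.5-fold for counts, and among values of single genes 764 did so, 343 moved and 8 turned round.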
